A study of Mus musculus with 3 samples.

Results

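Translation initiation and elongation factors are the proteins that bring ribosomes to messenger RNA, place them at the start codon and move them along the coding region. On the Affymetrix Mouse 430 2.0 array they were taken as every probe set whose single gene symbol in the platform annotation begins with Eif or Eef and a number, which includes the eIF4E-binding proteins and the eIF2 kinases. The rule found 155 probe sets for 58 genes among the 45101 probe sets of the array. Of these, 125 probe sets for 56 genes passed the filter on low values, a mean percentile rank of at least 0.5 over the 3 arrays. All probe sets of Eif4a3, a helicase of the exon junction complex, and of Eef2kmt, a methyltransferase that acts on eEF2, failed it.

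The RNA came from gastrocnemius, a mostly fast-twitch calf muscle, of transgenic mice that, per the labels, make a fusion of the kinase Akt with an oestrogen-binding domain in skeletal muscle, where tamoxifen stabilises the fusion and the muscle grows. The sample titles speak instead of raised Akt expression, and the labels do not say whether a Cre recombinase is part of the model. The groups were tamoxifen for 48 h, tamoxifen for 24 h and oil for 24 h, each with 1 array of RNA pooled from 3 to 4 mice. All 3 groups carried the transgene, with the genotype Akt_Cre transgenic and the strain C57BL/CD1. The promoter of the transgene and the age of the mice are not given in the sources used here. Tamoxifen in mice without the fusion and oil at 48 h were not analysed here, so time and treatment cannot be told apart at 48 h, nor can Akt and other effects of tamoxifen.

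Initiation starts when eIF2 with GTP carries the initiator tRNA to the small ribosomal subunit, helped by eIF1, eIF1A, eIF3 and eIF5. The messenger RNA is brought in through its cap by eIF4E, the scaffold eIF4G and the helicase eIF4A with its helper eIF4B. Akt is known to act on both steps through the kinase mTOR complex 1, which phosphorylates the eIF4E-binding proteins so that they release eIF4E, and through GSK3, which inhibits eIF2B, the exchange factor that reloads eIF2 with GTP. During elongation eEF1A delivers aminoacyl tRNAs and eEF2 moves the ribosome. Much of this control acts on proteins and cannot be read from the RNA levels given here.

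Values below are scaled intensities, the deposited linear intensities after the arrays were brought to the same median over the probe sets that passed the filter. Each gene is read on its passing probe set of highest mean rank. Intensities compare arrays within a probe set and do not rank genes against each other. In the values that follow, 48 h and 24 h stand for tamoxifen. Since every group has a single array, neither a replicate error nor a test could be given. A gene past 2-fold is reported by size alone, and a second size of 1.5-fold was added after the data had been seen. The log2 ratios of different probe sets of the same gene had a median standard deviation of 0.30 at 24 h and 0.26 at 48 h over 5001 genes, which is a technical yardstick and not the variation between mice.

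Fast-muscle markers were bright on every array, all 10 of them passing the filter, with summed intensities of 91088 at 48 h, 88641 at 24 h and 92054 with oil. Markers of other cells differed between arrays. The sum over 3 of 5 neutrophil markers was 59.5 at 48 h, 105.2 at 24 h and 168.8 with oil, and over 5 of 5 endothelial markers it was 664 at 48 h, 842 at 24 h and 911 with oil. Over 6 of 6 macrophage markers it was 1164 at 48 h, 1264 at 24 h and 1341 with oil, over 6 of 6 fibroblast and tendon markers 11003 at 48 h, 11021 at 24 h and 12462 with oil, and over 6 of 6 slow-fibre markers 7200 at 48 h, 9477 at 24 h and 8232 with oil. For adipocytes (3 of 6 markers) the sums were 559 at 48 h, 839 at 24 h and 683 with oil, for blood (2 of 5) 70.9 at 48 h, 54.5 at 24 h and 85.4 with oil, and for Schwann cells (2 of 5) 1133 at 48 h, 1125 at 24 h and 1307 with oil. These sums hide members that differ in direction. At 48 h Col1a1, a fibroblast collagen, was 2.26-fold above oil, though its passing probe sets ran from 0.13 to 1.18 in log2. The tendon genes Tnmd and Fmod were 1.95-fold and 1.71-fold below oil at 48 h. The macrophage genes Cd68 and Cd163 stood at 0.58 and -1.07 in log2 at 48 h. Of the 5 endothelial markers, 3 were above oil at 24 h and 1 at 48 h. At 24 h the endothelial genes Kdr and Vwf stood at 0.75 and -0.78 in log2. None of the markers compared was at the floor on all 3 arrays. The part of these differences in the factor values was not tested, and fewer cells of a type cannot be told apart from less RNA per cell.

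Few factor genes were past 2-fold, as was the case for bright genes in general. At 24 h of tamoxifen none of the 56 genes was 2-fold different, against a background of 4.83% of all 11092 genes compared. At 48 h 1 gene was, Eef1e1, which was above oil, against 6.44% of all genes. Between tamoxifen 48 h and tamoxifen 24 h none was, against 3.22%. At 1.5-fold, 4 factor genes stood above oil and 3 below at 24 h, beside 9.57% of all genes above and 9.02% below (18.6% in either direction). At 48 h 6 stood above and 1 below, beside 11.7% and 10.7% (22.4% in either direction). Between the tamoxifen arrays 1 factor gene was above and 1 below at 1.5-fold, beside 6.91% and 5.84% (12.8% in either direction). The factor genes were brighter than most, with a median mean rank of 0.947 against 0.799 for all genes. Among genes of mean rank 0.75 or more, which held 50 factor genes, the background past 2-fold was 2.63% at 24 h and 4.42% at 48 h, so counts of 0 and 1 lie near the background and are no result about the factors.

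The median log2 ratio of the factor genes was 0.07 at 24 h and 0.10 at 48 h, beside 0.04 and 0.01 for all genes. Ratios above 0 were found in 36 of 56 factor genes at 24 h (64.3%, beside 54.0% of all genes) and in 33 at 48 h (58.9%, beside 50.6%). The count at 24 h depends on the processing: it was 45 without scaling and 30 with quantile normalization, where the factor median of 0.01 lay below the 0.03 of all genes. Their spread was narrower than that of all genes, with a standard deviation across genes of 0.31 beside 0.49 at 24 h and 0.37 beside 0.55 at 48 h. Both comparisons share the oil array, which was the lowest of the 3 for 29 factor genes and the highest for 16. Of the 125 passing probe sets, 3 were past 2-fold at 24 h and 3 at 48 h, all but that of Eef1e1 being a dimmer probe set of a gene whose brightest stayed within 2-fold (beside 6.64% and 7.01% of all passing probe sets with 1 gene, and 4.79% between the tamoxifen arrays, where 3 factor probe sets were past 2-fold).

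**Figure D1:**
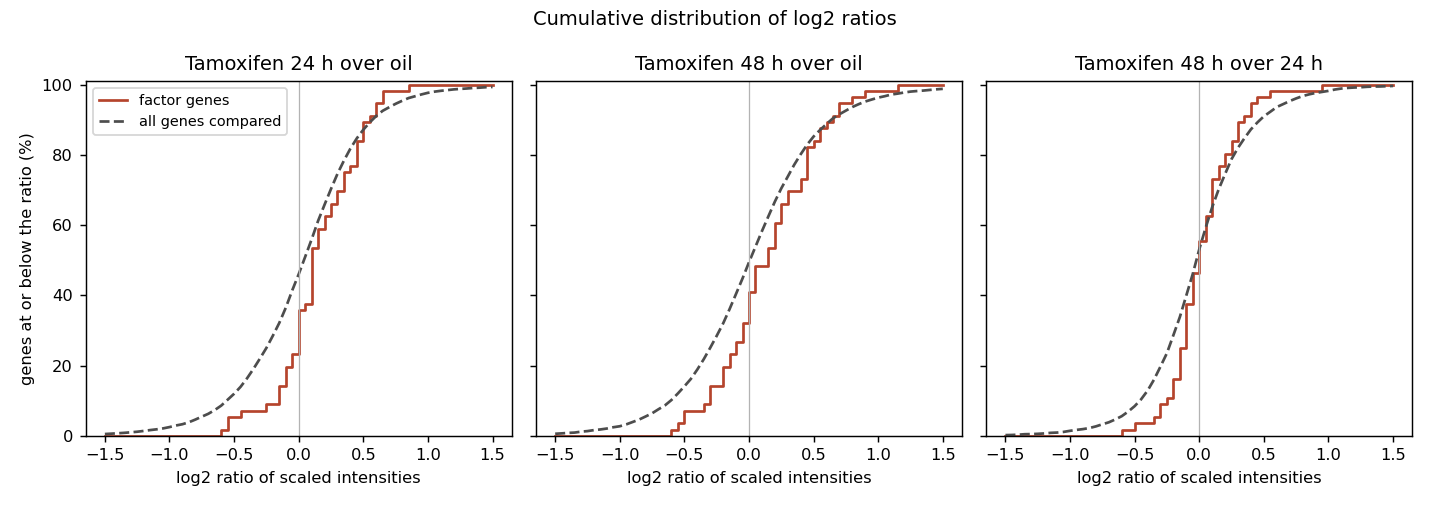
Share of genes (y axis, %) at or below a log2 ratio of scaled intensities (x axis) for the 56 factor genes (solid step) and all 11092 genes compared (dashed line), in each of the 3 comparisons. The factor curve is steeper than that of all genes, with standard deviations of 0.31 beside 0.49 at 24 h and 0.37 beside 0.55 at 48 h, and no factor gene lies beyond a log2 ratio of 1 except Eef1e1 at 48 h.

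**Figure D2:**
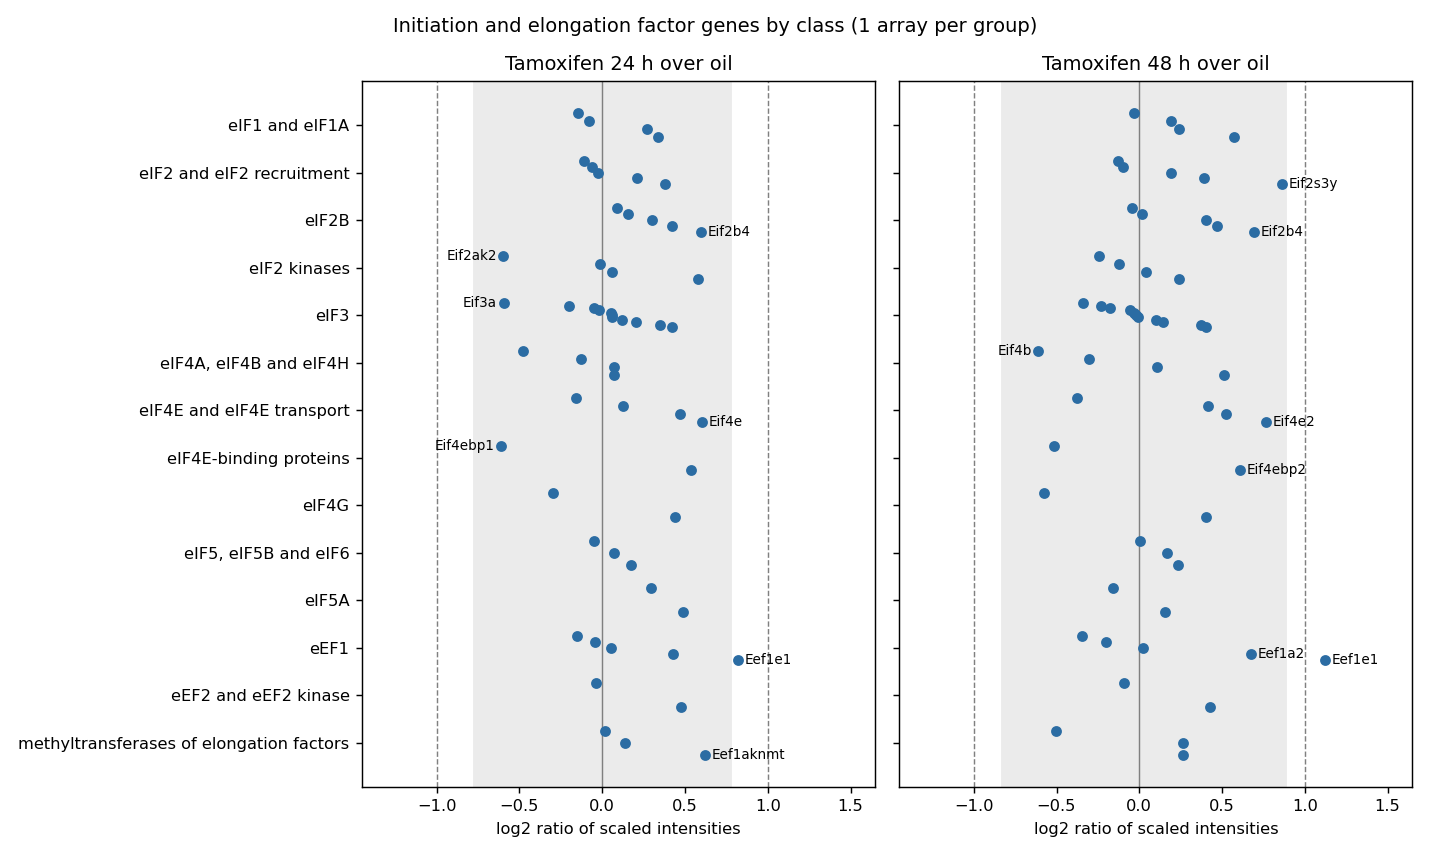
log2 ratio of each factor gene (point, 1 array per group) over oil at 24 h (left) and 48 h (right) by factor class, with names for genes past 1.5-fold. Dashed lines mark 2-fold, and the grey band holds the middle of all 11092 genes, from the 5th to the 95th percentile. Only Eef1e1 lies beyond the band, at 0.82 at 24 h and 1.12 at 48 h.

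The bases around the RefSeq start are shown for 4 factor genes. Messenger RNAs of the translation apparatus, Eef1a1 among the best known, often begin with a C followed by an unbroken run of pyrimidines. This element, called a terminal oligopyrimidine tract, puts their translation under mTOR complex 1. The windows run from 10 bases before to 20 bases after the RefSeq start (GRCm38.p6), 5′ to 3′ on the gene's strand, with the pyrimidine run in capitals from its C within 5 bases of the start. The start is that of the promoter table, which for Eif2s3y lies inside the bounds that the gene table gives. They lie at chr9:78481705-78481734 on the minus strand, chr7:108934405-108934434 on the plus strand, chrX:94212632-94212661 on the minus strand and chrY:1010585-1010614 on the plus strand.
Eef1a1: ctccgCCCTCTTCCCgagggtgggggagaa
Eif3f: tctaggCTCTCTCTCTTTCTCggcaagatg
Eif2s3x: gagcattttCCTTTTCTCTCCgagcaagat
Eif2s3y: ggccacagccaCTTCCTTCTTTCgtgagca
Counted from that C, the run is 10 bases long in Eef1a1, 15 in Eif3f and 12 in Eif2s3x and in Eif2s3y. In Eif2s3x further pyrimidines stand directly before the capitals, so there the unbroken run is longer and does not begin with C. A run of at least 8 bases that began with C within 5 bases of a start was present in 7 of 45 factor genes found in the promoter table (15.6%), beside 6.13% of the 9009 compared genes found there. The others were Eif2b2, Eif2b5 and Eif3l. The log2 ratios of the 7 genes at 48 h were -0.35 for Eef1a1, -0.34 for Eif3f, -0.02 for Eif3l, -0.04 for Eif2b5, 0.19 for Eif2s3x, 0.40 for Eif2b2 and 0.86 for Eif2s3y, so these genes lay on both sides of oil. A match to these letters is a description and not a mapped transcript start. Whether the run marked in Eef1a1, or in any other gene here, is the one its messenger RNA begins with was not tested.

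Among the factors of start codon selection, none was past 1.5-fold. Eif1b, a close relative of eIF1, which guards the fidelity of the start codon, read 413 at 48 h, 336 at 24 h and 278 with oil, 1.48-fold above oil at 48 h and 1.21-fold at 24 h. Eif1ax, which encodes eIF1A from the X chromosome, read 711 at 48 h, 569 at 24 h and 602 with oil. Its relative Eif1a read 128.0 at 48 h, 118.4 at 24 h and 130.9 with oil, and Eif1ad, a protein with an eIF1A-like domain, read 109.2 at 48 h, 121.0 at 24 h and 95.8 with oil.

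The subunits of eIF2, which carries the initiator tRNA, differed from each other. Eif2s2, the beta subunit, read 2646 at 48 h, 2334 at 24 h and 2020 with oil (log2 ratios of 0.39 at 48 h and 0.21 at 24 h). Its 6 passing probe sets spanned log2 ratios between -0.08 and 0.39 at 48 h, and at 24 h from 2.01-fold below oil to 1.16-fold above, so its direction at 24 h depends on the probe set. The gamma subunit is encoded on the X chromosome by Eif2s3x and on the Y chromosome by Eif2s3y. All 3 probe sets of Eif2s3x were above oil at 24 h, with log2 ratios of 0.38 to 0.60, and close to oil at 48 h, with -0.06 to 0.19.

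Eif2s3y read 417 at 48 h, 219.6 at 24 h and 229 with oil. On this single passing probe set it stood 1.82-fold above oil and 1.90-fold above tamoxifen 24 h. A dim probe set that failed the filter did not show this, reading 10.1 at 48 h, 8.78 at 24 h and 10.2 with oil. Eif2s3y was the only factor gene more than 1.5-fold above both other arrays at 48 h. The labels state no sex for the pooled mice, and the part of sex in the values of Eif2s3y was not tested. Other Y-linked genes did not show the same order: Kdm5d, a histone demethylase, read 52.1 at 48 h, 49.0 at 24 h and 85.9 with oil, and the brightest probe set of Uty, a relative of the demethylase Kdm6a, read 48.2 at 48 h, 54.5 at 24 h and 112.4 with oil. Of the other passing probe sets of Uty, 1 read 24.6 at 48 h, 24.6 at 24 h and 59.8 with oil, and 1 read 42.7 at 48 h, 44.3 at 24 h and 40.8 with oil. None of the 3 probe sets of Xist, the RNA that silences an X chromosome in females, passed the filter. The alternative initiator tRNA carriers Eif2a and Eif2d were within 1.09-fold of oil at both times on their brightest probe sets.

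The exchange factor eIF2B has 5 subunits, all of them measured. At 24 h all 5 had ratios above 0, and at 48 h 4 of 5 did, with class medians of 0.30 and 0.40 in log2 beside 0.04 and 0.01 for all genes. Eif2b4, the delta subunit, read 579 at 48 h, 542 at 24 h and 358 with oil, 1.62-fold above oil at 48 h and 1.51-fold at 24 h. Eif2b3, the gamma subunit of the catalytic part, read 220.3 at 48 h, 213.6 at 24 h and 159.2 with oil (1.38-fold above oil at 48 h and 1.34-fold at 24 h). For Eif2b2, the beta subunit, the readings were 742 at 48 h, 693 at 24 h and 561 with oil, and all 3 of its probe sets were above oil, by 0.40 to 0.60 in log2 at 48 h and 0.14 to 0.43 at 24 h. On the probe sets that stand for these 3 subunits the tamoxifen arrays lay together and oil lay apart. The dimmest probe set of Eif2b2 did not group so, reading 98.8 at 48 h, 79.6 at 24 h and 72.5 with oil. Eif2b3 and Eif2b4 each rest on 1 probe set. The alpha subunit Eif2b1, reading 245.5 at 48 h, 270.4 at 24 h and 243.2 with oil, and the catalytic epsilon subunit Eif2b5, reading 199.6 at 48 h, 218.7 at 24 h and 205.6 with oil, were within 1.11-fold of oil.

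The 4 kinases that phosphorylate eIF2 and so lower initiation under stress were dim apart from Eif2ak1, the haem-regulated kinase, which read 122.4 at 48 h, 139.0 at 24 h and 133.3 with oil. The 3 passing probe sets of Eif2ak1 disagreed in direction. They ran from -0.25 to 0.06 in log2 at 24 h and from -0.21 to 0.25 at 48 h. Eif2ak3 (PERK), the kinase of endoplasmic reticulum stress, read 52.5 at 48 h, 50.4 at 24 h and 50.9 with oil, a range of only 1.04-fold. Eif2ak2 (PKR), which responds to double-stranded RNA, read 24.2 at 48 h, 19.0 at 24 h and 28.7 with oil, 1.51-fold below oil at 24 h and 1.19-fold below at 48 h, with its other passing probe set at -0.44 and -0.14 in log2. Eif2ak4 (GCN2), the sensor of uncharged tRNA, read 16.5 at 48 h, 20.8 at 24 h and 13.95 with oil on a single passing probe set. That was 1.18-fold above oil at 48 h and 1.49-fold at 24 h. A probe set of the gene that failed the filter went the other way, reading 8.08 at 48 h, 5.69 at 24 h and 18.8 with oil. The direction of Eif2ak4 thus depends on the probe set.

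The 11 measured genes of eIF3, the large complex that holds the small subunit ready, had class medians of 0.06 at 24 h and -0.02 at 48 h. Eif3a, its largest subunit, was the exception at 24 h. It read 650.3 at 48 h, 447 at 24 h and 676 with oil, 1.51-fold below oil at 24 h. All 4 probe sets were below oil at 24 h, from -1.01 to -0.21 in log2, and at 48 h, from -0.21 to -0.05. Eif3b, a scaffold subunit, read 260.6 at 48 h, 250.7 at 24 h and 196.8 with oil, and Eif3d, a subunit that can bind the cap, reading 452.5 at 48 h, 467.9 at 24 h and 348.8 with oil, both 1.27-fold to 1.34-fold above oil at each time. Eif3f read 1568 at 48 h, 1727 at 24 h and 1981 with oil and Eif3h 1016 at 48 h, 1178 at 24 h and 1193 with oil, so that the oil array was the highest for both. The brightest probe set of Eif3e read 1697 at 48 h, 1859 at 24 h and 1921 with oil, and all 3 of its probe sets were below oil at both times, with log2 ratios of -0.32 to -0.18 at 48 h. On their brightest probe sets the remaining subunits Eif3c, Eif3i, Eif3k, Eif3l and Eif3m had log2 ratios between -0.03 and 0.20 in both comparisons. Other passing probe sets went further. Eif3m reached -0.91 at 24 h and -0.61 at 48 h, and Eif3l reached -0.51 at 48 h. Eif3c ran from -0.41 to 0.35 at 24 h and up to 0.42 at 48 h.

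The cap-binding factors and their inhibitors differed in direction. Eif4e, the cap-binding subunit, read 1190.0 at 48 h, 1356 at 24 h and 894 with oil, 1.33-fold above oil at 48 h and 1.52-fold at 24 h. All 4 of its probe sets were above oil, by 0.35 to 1.07 in log2 at 48 h and 0.48 to 0.88 at 24 h. Eif4e2, a relative that binds the cap and is known as a repressor, read 289.8 at 48 h, 236.2 at 24 h and 170.8 with oil (1.70-fold above oil at 48 h and 1.38-fold at 24 h), with all 4 probe sets above oil. Eif4e3 read 433 at 48 h, 328 at 24 h and 301 with oil, and Eif4enif1, which carries eIF4E into the nucleus, read 114.0 at 48 h, 132.5 at 24 h and 148.2 with oil.

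The bases before 1 of the 2 RefSeq starts of Eif4e are shown because its promoter is known for binding sites of Myc, which recognises CACGTG. They lie at chr3:138527018-138527267 on the plus strand (GRCm38.p6), 250 bases read 5′ to 3′, with CACGTG in capitals.
Eif4e: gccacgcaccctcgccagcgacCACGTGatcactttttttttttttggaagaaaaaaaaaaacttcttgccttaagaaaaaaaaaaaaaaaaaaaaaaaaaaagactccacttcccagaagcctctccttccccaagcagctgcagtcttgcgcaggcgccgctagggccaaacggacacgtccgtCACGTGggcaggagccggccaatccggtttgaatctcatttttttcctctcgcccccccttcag
The matches begin 228 and 64 bases before that start. The start printed was required to hold CACGTG, so its presence there was fixed in advance. It lies inside the bounds given for the gene, and the bases before the other start are not described here. CACGTG reads the same on both strands. It occurred in the 300-base promoters (250 bases before the start to 50 after) of 12 of 45 factor genes (26.7%), beside 11.9% of 9009 compared genes and 7.15% of all 32851 promoters. TGATGNAA, a motif read by the stress factor ATF4, was searched on both strands and occurred in 2 of 45 factor genes, Eef2k and Eif2s3x, and in 2.73% of compared genes. The letters of the motifs can share bases, and Eef2k holds both. The 12 genes with CACGTG were Eef1aknmt, Eef2, Eef2k, Eif1b, Eif3a, Eif3f, Eif3k, Eif4a1, Eif4e, Eif4h, Eif5a and Eif5a2, and their log2 ratios at 48 h ran from -0.34 for Eif3f to 0.57 for Eif1b.

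Eif4ebp1, the inhibitor that mTOR complex 1 switches off, read 485 at 48 h, 455 at 24 h and 694 with oil, 1.43-fold below oil at 48 h and 1.53-fold at 24 h. At 24 h its 3 probe sets were all below oil, from -0.61 to -0.45 in log2. At 48 h a dim probe set, reading 37.6 beside 29.8 on oil, went the other way at 0.33, while the others were at -0.52 and -0.35. Eif4ebp2, a second inhibitor of the same kind, read 186.1 at 48 h, 177.3 at 24 h and 122.2 with oil on its brightest probe set, 1.52-fold above oil at 48 h and 1.45-fold at 24 h. All 4 of its passing probe sets were above oil at 48 h, from 0.61 to 1.37, but at 24 h they ran from -0.97 to 0.94. The difference between the log2 ratios of Eif4ebp2 and Eif4ebp1 was 1.12 at 48 h and 1.15 at 24 h, and that between Eif4e and Eif4ebp1 was 0.93 and 1.21.

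**Figure D3:**
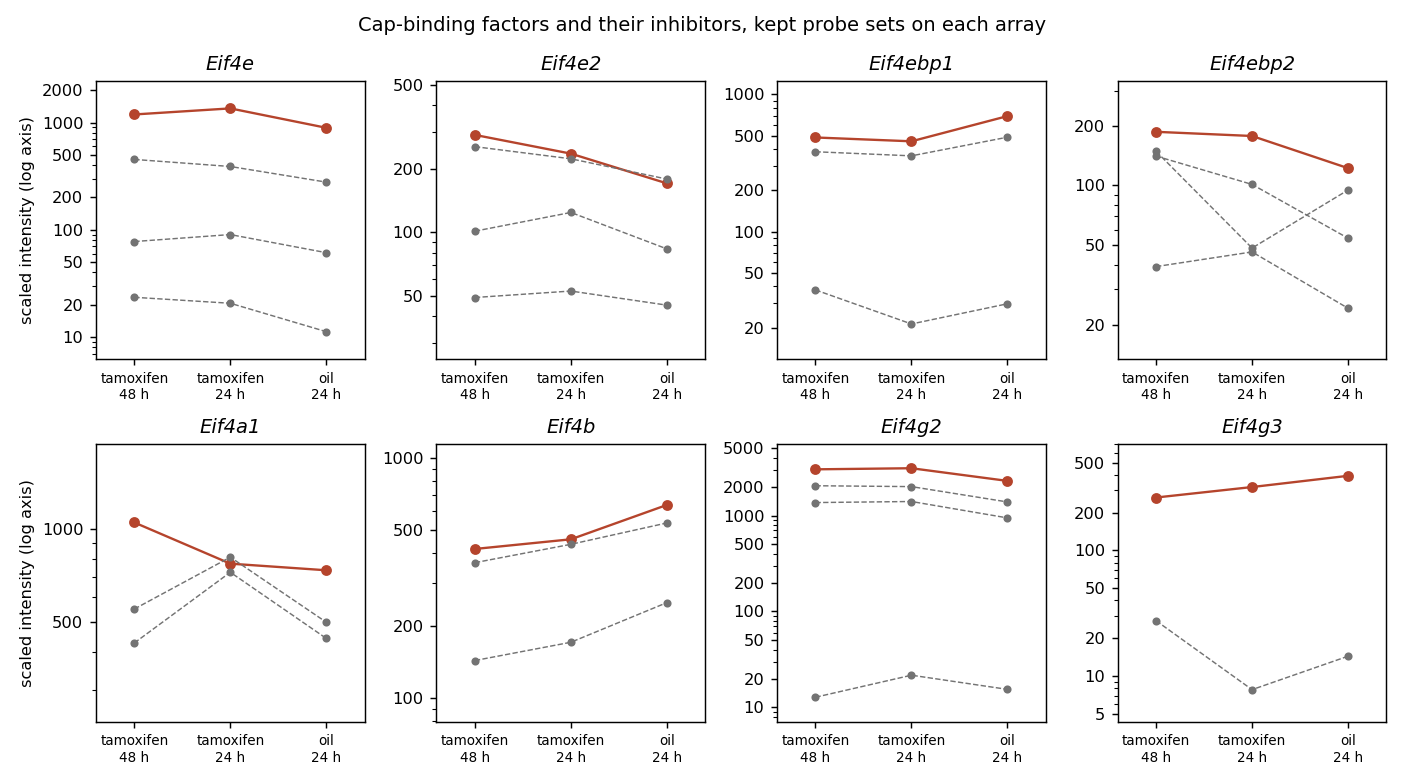
Scaled intensity (log y axis, span differs by panel) of the cap-binding factors and inhibitors on the tamoxifen 48 h, tamoxifen 24 h and oil 24 h arrays (x axis). Each line is a probe set that passed the filter, solid for the one that stands for the gene; all lines of Eif4e and Eif4e2 are lowest on oil, all lines of Eif4b are highest on oil, and lines of Eif4ebp2, Eif4a1 and Eif4g3 cross or part.

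The scaffold genes also differed. Eif4g2, a scaffold relative that lacks the eIF4E-binding site and serves cap-independent initiation, read 3027 at 48 h, 3108 at 24 h and 2293 with oil, 1.32-fold above oil at 48 h and 1.36-fold at 24 h. Its 3 bright probe sets stood at 0.40 to 0.56 in log2 at 48 h and 0.44 to 0.57 at 24 h, and a dim one, reading 12.8 at 48 h, 21.7 at 24 h and 15.4 with oil, was at -0.27 at 48 h and 0.49 at 24 h. Eif4g3, a scaffold that does bind eIF4E, read 263.7 at 48 h, 319.5 at 24 h and 392.4 with oil, 1.49-fold below oil at 48 h and 1.23-fold at 24 h. Its other passing probe set, reading 27.6 at 48 h, 7.80 at 24 h and 14.4 with oil, was at 0.94 at 48 h, so the direction at 48 h rests on the bright probe set.

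Of the helicase and its helpers, Eif4b was the lowest against oil at 48 h. It read 417 at 48 h, 458 at 24 h and 637 with oil, 1.53-fold below oil at 48 h and 1.39-fold at 24 h. All 3 probe sets gave the same order, from -0.80 to -0.55 in log2 at 48 h and -0.55 to -0.30 at 24 h. Eif4a1, the main helicase, read 1048 at 48 h, 771 at 24 h and 734 with oil on its brightest probe set, 1.43-fold above oil at 48 h. Its other probe sets peaked on the 24 h array instead, 1 reading 549.5 at 48 h, 809 at 24 h and 498 with oil, and 1 reading 426 at 48 h, 723 at 24 h and 441 with oil, so the 3 probe sets were above oil at 24 h by 0.07 to 0.71 and disagreed at 48 h, from -0.05 to 0.51. Eif4a2, the paralogue abundant in muscle, read 2221 at 48 h, 2505 at 24 h and 2742 with oil, 1.23-fold below oil at 48 h. Eif4h, another helper of the helicase, was within 1.08-fold of oil at both times on its brightest probe set. Its 4 passing probe sets ran from -0.28 to 0.40 in log2 at 48 h.

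In the subunit-joining class Eif5, which makes eIF2 hydrolyse its GTP, read 1330 at 48 h, 1145 at 24 h and 1183 with oil. Its 5 probe sets parted at 24 h, with 3 between 0.61 and 0.77 in log2, the brightest at -0.05 and the dimmest at -0.99. Eif5b, which joins the large subunit, read 213.8 at 48 h, 191.4 at 24 h and 182.0 with oil on its brightest probe set, while its other passing probe sets were below oil, at -0.05 and -0.33 in log2 at 48 h and -0.04 and -0.36 at 24 h. Eif6, which keeps the subunits apart until the large subunit is mature, read 268.9 at 48 h, 303.2 at 24 h and 268.7 with oil, while its dim probe set was at -0.86 at 48 h and -1.10 at 24 h. Eif5a, which helps ribosomes over difficult stretches such as prolines, read 3496 at 48 h, 3839 at 24 h and 3134 with oil, and both of its probe sets were above oil by 0.16 to 0.17 at 48 h and 0.25 to 0.29 at 24 h. Its paralogue Eif5a2 was dim, reading 14.6 at 48 h, 22.8 at 24 h and 16.2 with oil, and was 1.56-fold lower at 48 h than at 24 h of tamoxifen.

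Elongation factor eEF1A is made from a pair of genes in mice, and adult muscle is known to use Eef1a2 while most other cells use Eef1a1. Eef1a2 read 4615 at 48 h, 3889 at 24 h and 2892 with oil, 1.60-fold above oil at 48 h and 1.34-fold at 24 h. Eef1a1 read 3272 at 48 h, 4049 at 24 h and 4167 with oil, 1.27-fold below oil at 48 h and 1.03-fold at 24 h. The order of the arrays was thus opposite in the paralogues. The log2 ratio of Eef1a2 exceeded that of Eef1a1 by 1.02 at 48 h and 0.47 at 24 h, each gene resting on a single probe set. Of the exchange factor subunits that reload eEF1A, Eef1b2 read 1502 at 48 h, 1554 at 24 h and 1729 with oil and Eef1d read 846 at 48 h, 865 at 24 h and 834 with oil.

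Eef1e1 had the highest ratio of all factor genes in both comparisons with oil. It encodes a small protein of the multi-tRNA synthetase complex, known as AIMP3 or p18, and is an elongation factor by name and sequence relation rather than by role. It read 664 at 48 h, 540.2 at 24 h and 305 with oil, 2.17-fold above oil at 48 h and 1.77-fold at 24 h. These ratios stood at percentiles 97.2 and 95.8 of all 11092 genes. The gene has a single probe set on the array with 1 gene, so no other probe set checks it. The 250 bases before its RefSeq start, at chr13:38659029-38659278 on the minus strand (GRCm38.p6), are shown because it is the factor gene past 2-fold; they hold neither CACGTG nor TGATGNAA, and no base is in capitals.
Eef1e1: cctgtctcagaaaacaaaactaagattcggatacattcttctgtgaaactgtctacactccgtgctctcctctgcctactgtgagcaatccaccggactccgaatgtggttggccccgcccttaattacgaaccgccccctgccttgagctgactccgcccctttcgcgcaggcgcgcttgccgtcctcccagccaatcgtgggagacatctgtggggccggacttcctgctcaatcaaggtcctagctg

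**Figure D4:**
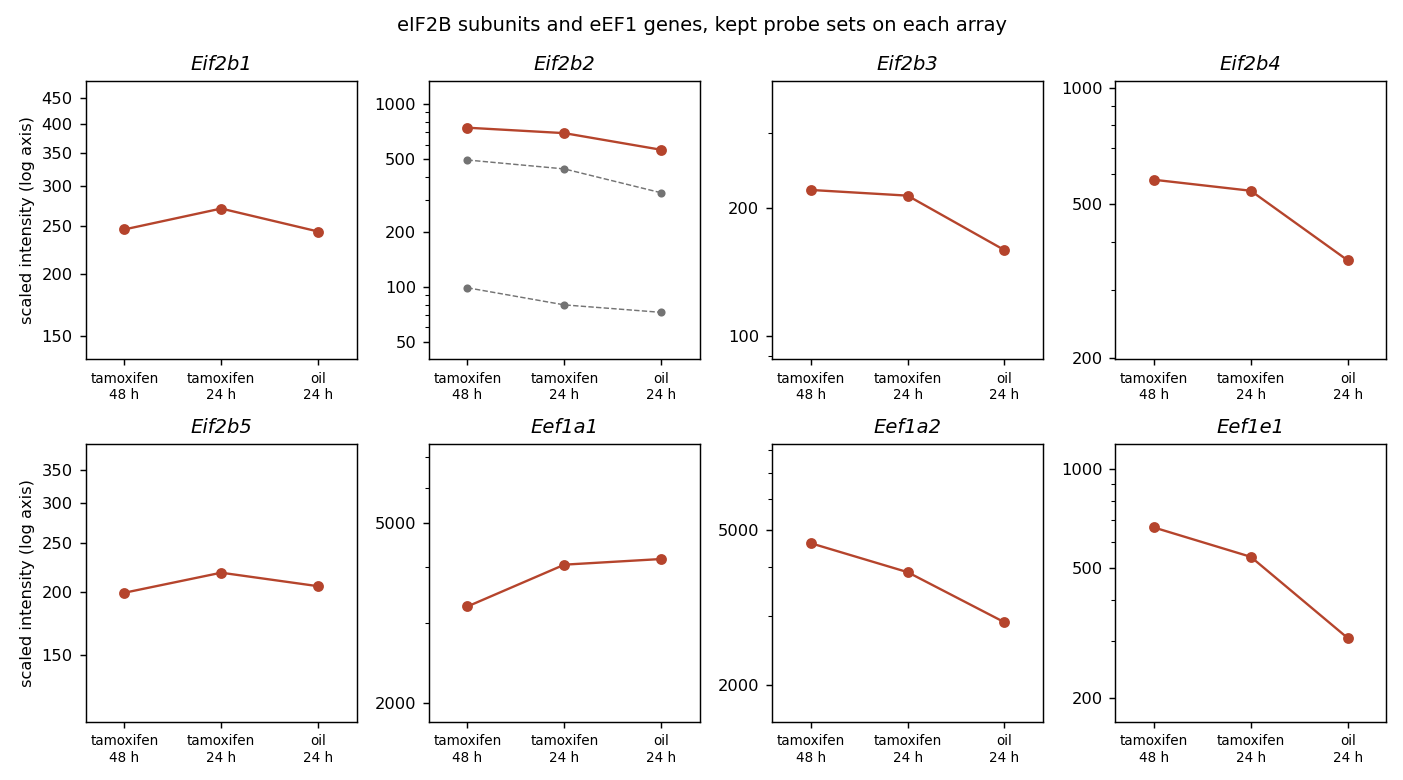
Scaled intensity (log y axis, span differs by panel) of the 5 eIF2B subunits and 3 eEF1 genes on the tamoxifen 48 h, tamoxifen 24 h and oil 24 h arrays (x axis), with a line for each passing probe set and a solid line for the one that stands for the gene. Oil is the lowest array for Eif2b2, Eif2b3, Eif2b4, Eef1a2 and Eef1e1 and, by a small margin, for Eif2b1. It is the highest for Eef1a1.

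Eef2, which moves the ribosome along, was close to level, reading 1924 at 48 h, 1998 at 24 h and 2048 with oil. Eef2k, the kinase that inhibits eEF2 and is restrained by growth signals, read 374 at 48 h, 388 at 24 h and 279 with oil, 1.34-fold above oil at 48 h and 1.39-fold at 24 h, and all 3 of its probe sets were above oil, by 0.23 to 0.78 in log2 at 48 h and 0.34 to 0.74 at 24 h. Among the methyltransferases that modify eEF1A, Eef1akmt1 read 165.8 at 48 h, 237.6 at 24 h and 235.2 with oil, 1.42-fold below oil at 48 h, and its 4 probe sets were all below oil at 48 h, from -0.50 to -0.13. Eef1aknmt read 24.6 at 48 h, 31.5 at 24 h and 20.5 with oil, 1.54-fold above oil at 24 h on its brightest probe set, with the other at 0.00. Eef1akmt2 read 66.0 at 48 h, 60.3 at 24 h and 54.9 with oil.

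Factors and regulators that work beside these genes were read from lists written with earlier results known. The 29 partners compared include kinases, poly(A)-binding proteins and phosphatase subunits. On the probe set that stands for each gene, none was past 2-fold in any comparison. That is near the background of 4.83% of all genes at 24 h, 6.44% at 48 h and 3.22% between the tamoxifen arrays. Other passing probe sets of some partners were past 2-fold. Against oil in log2, Abcf1 reached -3.78 and Gcn1 -1.056 at 24 h, and Pabpc1 reached 1.255, Denr 1.256 and Impact 1.145 at 48 h. The median log2 ratio over the list was 0.13 (24 h) and 0.04 (48 h). Mknk1, the kinase that phosphorylates eIF4E, read 140.4 at 48 h, 119.4 at 24 h and 79.4 with oil, while other passing probe sets reached -0.49 in log2 at 24 h and -0.13 at 48 h. Pdcd4, an inhibitor of eIF4A, read 133.3 at 48 h, 148.1 at 24 h and 190.3 with oil. Rptor, the subunit of mTOR complex 1 that binds its substrates, read 109.5 at 48 h, 105.9 at 24 h and 72.7 with oil, and Mtor read 138.9 at 48 h, 158.5 at 24 h and 170.2 with oil. Ddx3x read 1395 at 48 h, 1083 at 24 h and 1665 with oil, 1.54-fold below oil at 24 h. Paip2b read 323 at 48 h, 474 at 24 h and 519 with oil, 1.61-fold below oil at 48 h. Passing probe sets of Ddx3x ran from -0.62 to -0.05 in log2 at 24 h, and those of Paip2b from -0.69 to -0.004 at 48 h. Of 7 termination and recycling genes, 1 was past 2-fold, Eefsec, the elongation factor for selenocysteine, which read 43.8 at 48 h, 61.8 at 24 h and 28.2 with oil (2.19-fold above oil at 24 h and 1.55-fold at 48 h). Of 8 mitochondrial translation factors, 1 was past 2-fold, Tsfm, the exchange factor of the mitochondrial elongation factor, reading 83.8 at 48 h, 139.7 at 24 h and 56.0 with oil (2.49-fold above oil at 24 h, and a log2 ratio of 0.58 at 48 h). Eefsec and Tsfm each rested on a single passing probe set, and 1 gene of so short a list is read against the 4.83% of all genes past 2-fold at 24 h.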

How the data were processed

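RNA from gastrocnemius was measured on 3 Affymetrix Mouse 430 2.0 arrays, 1 per group, each a pool of 3 to 4 mice per the labels. The deposited values were linear intensities, 1 per probe set and array; the authors' summary, background correction and scaling are not given in the sources used here. The deposited intensities had medians of 13.8 (tamoxifen 48 h), 13.2 (tamoxifen 24 h) and 15.2 (oil).

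After 64 control probe sets were removed from 45101, the platform annotation gave 1 gene to 34945, several to 932 and none to 9160, and current symbols came from the GRCm38.p6 RefSeq table by Entrez number. Another 8 probe sets name a factor together with another gene and were left out, and Eif2s1, Eif4g1 and Eif4ebp3 had no probe set of their own and were not analysed here. Probe sets of mean rank 0.5 or more were kept (21804, of which 19362 had 1 gene, for 11092 genes). The arrays were scaled by 1.05 for tamoxifen 48 h, 0.945 for tamoxifen 24 h and 1.01 for oil, a floor of 4.05 (the 25th percentile) was set, and log2 ratios were taken. On log2 values of kept probe sets the arrays correlated at r = 0.967 (tamoxifen 48 h with 24 h), 0.954 (tamoxifen 48 h with oil) and 0.955 (tamoxifen 24 h with oil).

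With 1 array per group no test was made, and precision is limited by having so few arrays. The members, classes and lists were chosen with earlier results of these data known. The text names all factor genes past 2-fold, the brightest, highest and lowest of each class, a fixed set of key genes and those whose probe sets disagree; others were named after their values were seen. Alternatives varied scaling, filter, floor and the choice of probe set. The calculation was tested on simulated data. Python 3.11.15, pandas 2.3.3, numpy 2.4.6 and matplotlib 3.10.9 were used.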

Additional observations from a re-analysis of the deposited data

How the results depend on the processing

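Under 8 alternatives of scaling, filter, floor and probe set choice Eef1e1 stayed past 2-fold at 48 h in all, with log2 ratios from 1.05 to 1.20, and was the only factor gene past 2-fold at 48 h in each. At 24 h the count was 1 with no filter, where the scaling changed and Eef1e1 was at 1.11, and 0 in the other 7. Between the tamoxifen arrays it was 1, Eef2kmt, with a filter at rank 0.25 and with no filter, which admit that dim gene, and 0 in the other 6. With the size of 1.5-fold, added after seeing the data, the counts were 7 at 24 h, 7 at 48 h and 2 between the tamoxifen arrays. The median of the factor genes lay between 0.01 and 0.36 (24 h) and between 0.04 and 0.20 (48 h). The factor genes above 0 at 24 h numbered 36 of 56 in the reported setting, 45 without scaling, 51 of 58 with no filter, 46 of 57 at rank 0.25, 30 with quantile normalization or the mean of probe sets and 29 of 50 at rank 0.75. The factor median lay below that of all genes with quantile normalization (0.01 beside 0.03) and at rank 0.75 (0.02 beside 0.03). Without scaling the median of all genes was 0.13 at 24 h, -0.05 at 48 h and -0.18 between the tamoxifen arrays, and the factor medians were 0.17, 0.04 and -0.20. The sign of the ratio held in the main setting and every alternative that kept the gene for 28 of 56 factor genes at 24 h, 44 at 48 h and 33 between the tamoxifen arrays. Eif2b2, Eif2b3, Eif2b4, Eif4e, Eif4e2, Eif4g2, Eef1a2, Eif4b and Eif4ebp1 kept theirs at both times. Eef1a1 at 24 h ranged from -0.10 to 0.25, Eif4a1 at 24 h from -0.04 to 0.49 and Eif4g3 at 48 h from -0.65 to 0.18. No paired analysis was possible because each group has 1 array. Single arrays of pooled RNA leave differences of the sizes given here without an error.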
